A study of Mus musculus with 8 samples.

Results

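The genes described here encode the proteins that choose splice sites and the kinases that act on them, namely the SR proteins (*Srsf* genes), the heterogeneous nuclear ribonucleoproteins (*Hnrnp* genes), the kinases *Clk1* to *Clk4*, *Srpk1* and *Srpk2*, and the factors *Tra2a*, *Tra2b*, *Son*, *Srrm1*, *Srrm2*, *Ddx5*, *Ddx17*, *Ptbp1*, *Ptbp2*, *U2af1*, *U2af2* and *Sf3b1*. They were chosen by the gene symbol that the array annotation gives each probe, which took 134 of the 45281 probes, in 48 of 19057 annotated genes. A probe was kept for the comparison if its detection p was under 0.05 on 4 or more of the 8 arrays, and 102 of the 134 passed, among 19841 kept probes in all. Each of the 48 genes had at least 1 kept probe. Of the 32 probes that were not kept, 9 could not be joined to a signal, and 5 of the 32 were detected on any array.

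The arrays were hybridized with RNA of cells sorted by fluorescence for EGFP made from the *Bapx1* locus, taken from E12.5 mouse spleens on a mixed C57BL/6J;129 background. In the 4 null samples both *Bapx1* alleles carry EGFP directly behind the start codon (*Bapx1* tm4.Tlu), with a short stretch of the gene deleted. In the 4 wildtype samples EGFP was placed behind an internal ribosomal entry site after the coding sequence (*Bapx1* tm2.Tlu), and *Bapx1* itself stays intact. The study writes this wildtype allele as heterozygous, the labels do not give its copies, and neither gives the number of embryos behind a sample. EGFP was driven by the *Bapx1* regulatory elements in both genotypes, and at least 2 embryonic stem cell clones were injected for each allele.

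SR proteins bind exons through an RNA recognition motif and recruit the splicing machinery through a tail rich in arginine and serine, while many hnRNPs bind introns or exons and oppose them. CLK kinases in the nucleus and SRPK kinases, mostly in the cytoplasm, phosphorylate the arginine and serine rich tails and so set where SR proteins reside and what they bind. Many of these genes make several transcripts, some of them with a retained intron or an exon that leads to decay, so that probes of 1 gene can read different RNAs. Which transcript each probe reads was not determined here.

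Levels are normalized intensities on the log2 scale, where a difference of 1 is a 2-fold difference. *Bapx1* (current symbol *Nkx3-2*) was detected on the 4 null arrays, with levels of 7.14, 6.88, 6.76 and 7.37 at probe ILMN_2687592, and was not above background on any wildtype array, at 4.80, 4.53, 4.57 and 4.63. It was thus at least 3.79-fold higher in null cells, and at least 2.99-fold higher at ILMN_2687594. The null allele keeps most of the gene, and the positions of both probes were not used, so these values do not check the labels, and every direction below follows the labels. The spleen transcription factor *Nkx2-5* was lower in null cells, with 6.59, 7.16, 6.59 and 6.30, against 8.78, 8.76, 9.39 and 8.95 in wildtype cells (-2.31 ± 0.20, limma, adjusted p = 9.02e-05). Each array detected 42.0 to 44.5% of its probes. Among the defining markers of spleen mesenchyme, *Nkx2-5*, *Nkx2-3*, *Barx1*, *Tcf21*, *Pdgfra* and *Vim* were kept, while *Tlx1* and *Wt1* were not. The kept markers went both ways. *Barx1* (1.47 and 1.04) and *Pdgfra* (0.70) were higher in null cells, and *Vim* (-1.37) was lower. *Nkx2-3* was lower at ILMN_2697760 (-0.70) and did not pass at ILMN_1228029 (-0.23), and *Tcf21* did not pass (0.05). The female specific RNA *Xist* was lower at ILMN_2475156 on all null arrays (9.72, 9.91, 9.18 and 9.86) than on all wildtype arrays (11.40, 12, 10.76 and 12.44), and 2 of its 3 other probes did not overlap either, while ILMN_3022688 did (-0.44). The Y-linked *Eif2s3y* read 10.80, 10.80, 11.11 and 10.85 at ILMN_1241001 on null arrays, against 10.14, 9.98, 10.83 and 8.50 on wildtype arrays, where wildtype array 3 reached the null level and wildtype array 4 stood lowest, so the makeup of the samples by sex and their genotype cannot be told apart.

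The study describes a motif bound by Bapx1 in the vertebral column, and its forms TAAGTG and TGAGTG were searched on either strand. They were looked for in 300-base promoter windows, 250 bases before to 50 after each gene start, from RefSeq (GRCm38.p6), where 44 of the 48 genes had a window. The motif lay in a window of 10 of these 44 genes (22.7%), against 26.8% of 27025 genes. It was found for 6 of the 26 genes with a window and a probe lower in null cells (23.1%), and for 4 of the 18 others (22.2%). The sites below, motif in capitals, show 4 genes with strong falls and 2 whose brightest probes did not pass the test: *Srsf6* (chr2:162931484-162931513, + strand, motif on the opposite strand), *Srsf5* (chr12:80945515-80945544, +), *Hnrnph1* (chr11:50377792-50377821, +), *Hnrnpa1* (chr15:103240175-103240204, +), *Hnrnpc* (chr14:52104212-52104241, -) and *Hnrnpab* (chr11:51606925-51606954, -), each printed along the strand of its gene.
Srsf6: cccgcccccgggCACTTAtagcgtaggccg
Srsf5: cgtccgagctgcTAAGTGcgtcagttgtgg
Hnrnph1: tttttgtggaggTGAGTGactttccgtctt
Hnrnpa1: tacattcaaataTAAGTGactggctagtta
Hnrnpc: tccgtcagtcacTAAGTGgcatgaagctga
Hnrnpab: ctaggacaatggTGAGTGgcggttcgcttt
A match is a run of letters in the window, not a measured binding site.

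The comparison of null with wildtype cells asks how these regulators differ with *Bapx1* genotype. Of the 102 kept probes 51 were lower in null cells, 2 were higher (1.96%) and 49 did not pass (limma, Benjamini-Hochberg adjusted p under 0.05 over all 19841 kept probes). Over all kept probes 20.3% were lower and 21.6% higher. The median log2 difference was -0.32, against 0.042 over all kept probes. Falls of more than 2-fold were found at 22 of the kept probes (21.6%, against 5.56% of all kept probes), and rises of more than 2-fold at 2 (against 3.53%). All 4 null arrays lay below all 4 wildtype arrays at 47 probes (46.1%, against 18.2% of all kept probes) and above them at 5 (4.9%, against 20.1%).

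By gene, 29 of the 48 had at least 1 lower probe, 2 had a higher probe (*Srrm2* and *Hnrnpa0*), *Hnrnpa0* had both, and 18 had no call. Over all 10767 kept genes 23.7% had a lower probe and 28.8% a higher one, with 1.55 kept probes per gene, against 60.4% and 4.17% of the 48 genes, with 2.12 kept probes per gene. In 15 genes every kept probe was lower (31.2%, against 13% of all kept genes), and in 14 a lower probe stood beside one that was not. In sorted bulk samples fewer cells that express a gene and less RNA per cell cannot be told apart. When the *Xist* level at ILMN_2475156 entered as a covariate, 0 of the 102 probes passed limma's test (1 at an unadjusted p under 0.05), 77 of them still lay below 0 (79 without the covariate), and the median standard error was 0.31 in place of 0.15. Over all kept probes only 0.529% were then lower and 1.0% higher. This *Xist* probe does not overlap between the genotypes, so the covariate also takes up effects of genotype. With scaling by the median absolute deviation, which moved the median of all kept probes to 0.43, 19 of the 51 lower probes kept their call and the median of the member probes was 0.10, which is 0.33 below that of all probes. Under this scaling 18.6% of the 102 probes were lower, against 7.14% of all kept probes, and 7.84% higher, against 23.0%. The study's own methods describe a scale normalization with this measure of spread.

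**Figure D1:**
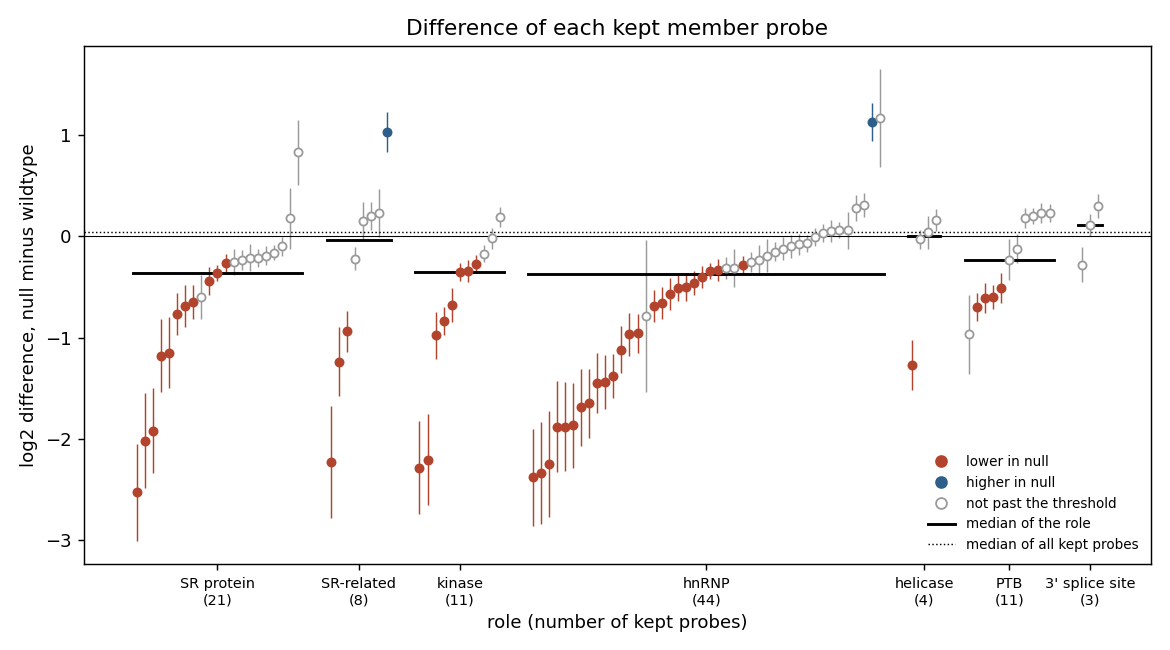
Log2 difference (null minus wildtype) of each of the 102 kept probes, ordered by size within each role, with bars of 1 standard error. Filled points passed an adjusted p of 0.05, short lines mark the median of a role and the dotted line the median of all kept probes (0.042). The falls reach -2.53 in the SR proteins and -2.38 in the hnRNPs, and 2 points are filled above 0.

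Of 11 kept kinase probes 8 were lower (7 of 10 without 1 probe of *Srpk2* that passed the filter only through the wildtype arrays) and 0 were higher, with a median of -0.35, and the lower probes belonged to *Clk1*, *Clk2*, *Clk4* and *Srpk2*. *Clk1*, a kinase that phosphorylates SR proteins in the nucleus, had levels of 8.27, 7.36, 7.12 and 8.64 on the null arrays, against 10.56, 10.37, 8.83 and 10.47 on the wildtype arrays. Null arrays 2 and 3 were the lowest and wildtype array 3 stood well below the other wildtype arrays, yet the genotypes did not overlap. The log2 difference was -2.21 ± 0.45 (SE), a 4.62-fold fall (limma, adjusted p = 0.00549).

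*Clk4*, a close relative of *Clk1*, was lower at all 3 of its kept probes, by unequal amounts. At ILMN_2737517 the levels were 7.72, 6.48, 6.53 and 8.02 in null cells, against 9.90, 9.87, 8.30 and 9.83 in wildtype cells, a log2 difference of -2.29 ± 0.46 (adjusted p = 0.00507). At its brightest probe ILMN_2851710 they were 11.90, 11.77, 11.84 and 11.92 in null cells, against 12.22, 12.32, 12.07 and 12.22 in wildtype cells, a difference of -0.35 ± 0.09 (adjusted p = 0.013) that turned to 0.49 under median absolute deviation scaling. Null arrays 2 and 3 and wildtype array 3 were the lowest of their genotypes at both probes, over a much narrower range at the second, and neither overlapped. The third probe, ILMN_2745251, fell by 0.68 on the log2 scale (adjusted p = 0.0132).

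*Srpk2*, a kinase of SR proteins with a high expression in nervous tissue, was lower at the 1 of its 2 kept probes that both genotypes detected. ILMN_1251876 read 7.52, 7.15, 7.13 and 8.0 in null cells, against 8.66, 8.53, 7.93 and 8.60 in wildtype cells, so that null array 4 passed wildtype array 3 (-0.98 ± 0.23, adjusted p = 0.00917). Under median absolute deviation scaling this call was lost (-0.68, limma, adjusted p = 0.0846). ILMN_1215363 lay within background on each null array (4.93, 4.79, 4.53 and 4.86) and was detected on all wildtype arrays (5.61, 5.46, 5.43 and 5.95), which made it at least 1.38-fold lower in null cells. It is the probe that passed the filter only through the wildtype arrays, so it had to differ and its p is not given. Among the others of this group, *Clk2* fell by 0.27 and 0.34 at 2 of 3 probes. The first of these was near background, detected on 1 null array and on 4 wildtype arrays. *Clk3* (-0.02, adjusted p = 0.917) and *Srpk1* (0.19, adjusted p = 0.153) did not pass.

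Of the 21 kept SR protein probes, in 10 genes, 11 were lower (52.4%) and 0 higher, with a median of -0.36. *Srsf6*, a regulator of alternative exons, showed the largest difference among the kept probes of the 48 genes. At ILMN_1240406 it had levels of 7.0, 6.01, 5.49 and 7.58 in null cells, against 9.38, 9.31, 8.01 and 9.48 in wildtype cells (-2.53 ± 0.48, a 5.76-fold fall, adjusted p = 0.00412). Null arrays 2 and 3 and wildtype array 3 were again the lowest of their genotypes. Its brighter probe ILMN_2611728 read 12.06, 11.92, 11.90 and 12.03 in null cells, against 12.31, 12.34, 12.34 and 12.36 in wildtype cells, a separation without overlap of -0.36 ± 0.08 (adjusted p = 0.00808). Under median absolute deviation scaling this smaller difference was 0.50, and without null arrays 2 and 3 and wildtype array 3 it missed the threshold (-0.29, adjusted p = 0.0537).

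*Srsf5* was lower at both probes. ILMN_2772274 read 9.53, 8.67, 7.77 and 10.03 in null cells, against 11.16, 10.80, 10.71 and 11 in wildtype cells (-1.92 ± 0.42, adjusted p = 0.00717). ILMN_3148662 read 11.28, 10.77, 10.63 and 11.59 in null cells, against 12.07, 11.79, 11.67 and 11.83 in wildtype cells (-0.77 ± 0.21, adjusted p = 0.0163). Under median absolute deviation scaling this second difference was -0.01, and it missed the threshold by the methods' t-test (adjusted p = 0.0501). The null arrays spread over more than 2 log2 units at the first probe and under 1 at the second, and neither probe overlapped between the genotypes.

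*Srsf10*, which represses splicing when dephosphorylated, was lower at 3 of 4 probes, among them ILMN_1248565 (-1.18, adjusted p = 0.0273). ILMN_3019002 read 7.98, 6.88, 6.35 and 8.75 in null cells, against 9.68, 9.59, 8.92 and 9.86 in wildtype cells (-2.02 ± 0.47, adjusted p = 0.00975). ILMN_2698282 read 8.61, 7.55, 7.75 and 9.06 in null cells, against 9.62, 9.34, 8.80 and 9.79 in wildtype cells (-1.15 ± 0.35, adjusted p = 0.0261), and null array 4 passed wildtype array 3. ILMN_1245192 lay on the other side of 0 and missed the threshold, with 8.54, 8.92, 9.60 and 7.98 in null cells and 7.77, 7.66, 8.43 and 7.86 in wildtype cells (0.83 ± 0.32, adjusted p = 0.0619). On this probe null arrays 2 and 3 and wildtype array 3 were the highest of their genotypes. It passed with the replicate number as a block (adjusted p = 0.0145) and without null array 4 (1.09, adjusted p = 0.00924) or wildtype array 3 (1.0, adjusted p = 0.041). The fall at ILMN_2698282 missed the threshold when null array 2 or 3 or wildtype array 1, 2 or 4 was left out (adjusted p from 0.0554 to 0.0757). It also missed it under median absolute deviation scaling (-0.71, limma, adjusted p = 0.155) and by the methods' t-test (adjusted p = 0.0761).

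The other SR proteins differed less. *Srsf11* was lower at 2 of 4 probes (-0.65 and -0.69), *Srsf1*, a founding member of the family, at 1 of 2 (-0.44, adjusted p = 0.0289), and *Srsf2* at 1 of 2 (-0.26, adjusted p = 0.0393). *Srsf3* (-0.21 and -0.25), *Srsf4* (-0.16), *Srsf9* (-0.10) and *Srsf12* (-0.60) did not pass.

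Among the SR-related factors 3 of 8 kept probes were lower and 1 was higher, with a median of -0.04. *Tra2b*, an activator of exons with purine rich enhancers, read 8.40, 7.10, 6.40 and 9.04 in null cells, against 10.34, 9.91, 9.13 and 10.48 in wildtype cells (-2.23 ± 0.55, adjusted p = 0.0121). The highest null array came close to the lowest wildtype array without passing it. Its paralog *Tra2a* read 11.49, 10.81, 10.83 and 11.60 in null cells, against 12.24, 12.13, 11.84 and 12.30 in wildtype cells (-0.94 ± 0.20, adjusted p = 0.00681), a call lost under median absolute deviation scaling (-0.15). *Son*, a large protein of nuclear speckles needed for splicing of weak introns, was lower at ILMN_2763871, with 7.28, 6.45, 6.09 and 7.77 in null cells and 8.24, 8.08, 7.79 and 8.46 in wildtype cells (-1.24 ± 0.34, adjusted p = 0.0177). This call was lost without null array 2 (adjusted p = 0.0513) or wildtype array 4 (adjusted p = 0.0538). It was also lost under median absolute deviation scaling (-1.07, limma, adjusted p = 0.0565) and by the methods' t-test (adjusted p = 0.0587). At its dimmer probe ILMN_2670834 the levels of 5.87, 5.44, 5.99 and 5.94 in null cells and 5.67, 5.41, 5.62 and 5.73 in wildtype cells overlapped (0.20 ± 0.14, adjusted p = 0.255).

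*Srrm2*, a scaffold of nuclear speckles, was 1 of the 2 higher probes. It read 11.19, 11.38, 11.42 and 11.30 in null cells, against 9.78, 10.33, 10.89 and 10.17 in wildtype cells (1.03 ± 0.20, a 2.04-fold rise, adjusted p = 0.00496). Here wildtype array 3 was the highest of its genotype, and the null arrays lay close together. The related *Srrm1* did not pass at either of its probes (0.15 and 0.23).

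**Figure D2:**
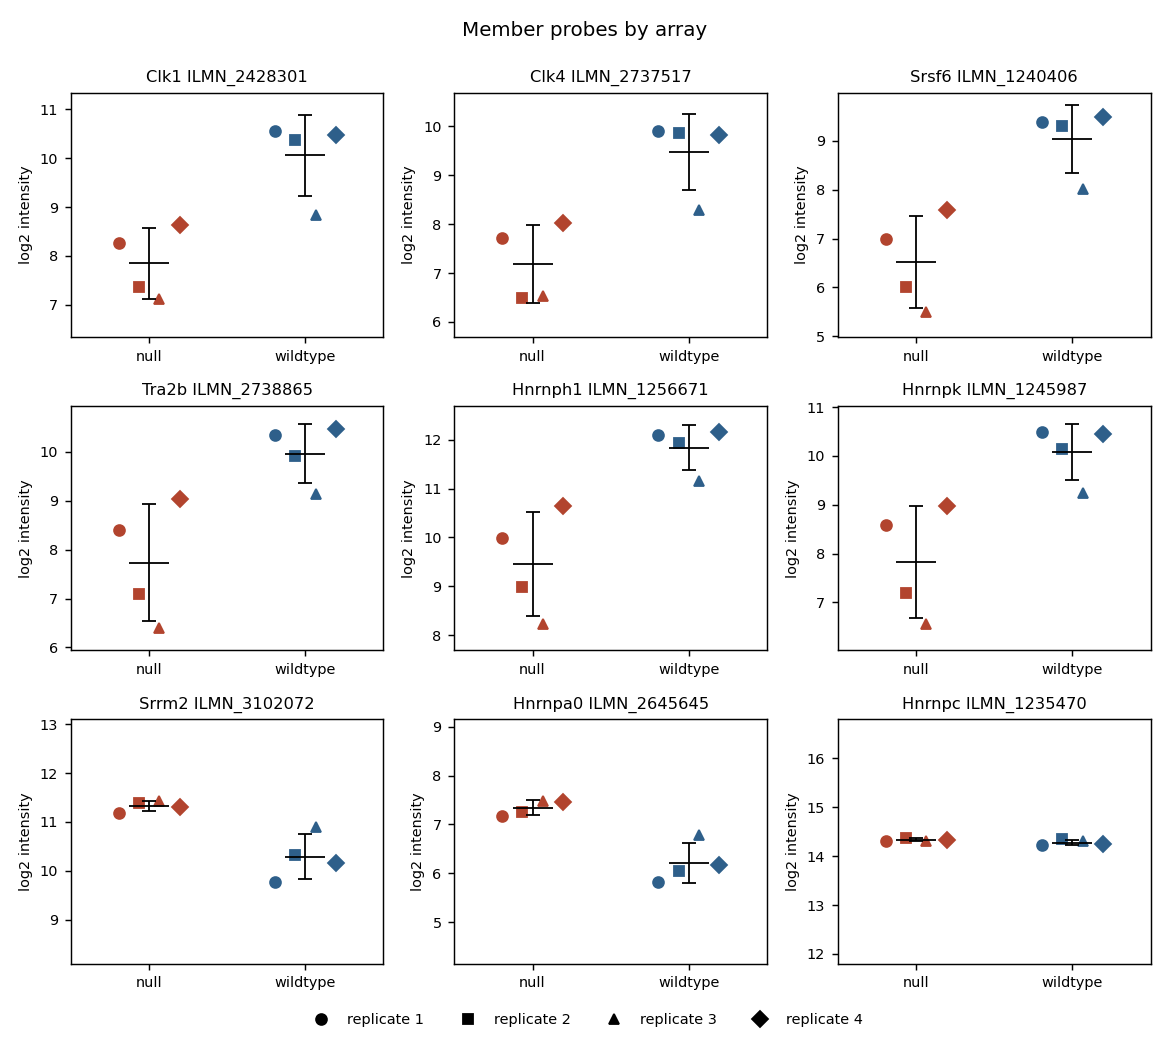
Normalized log2 intensity of 9 probes on each array, null left and wildtype right, 1 symbol per replicate number, with the mean and SD of the 4 arrays; every panel spans 5 log2 units. In the upper 6 panels null replicates 2 and 3 and wildtype replicate 3 lie lowest in their genotype, Srrm2 and Hnrnpa0 lie higher in null, and Hnrnpc is level near 14.3.

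The hnRNPs held 44 kept probes in 20 genes, of which 24 were lower (54.5%) and 1 higher, with a median of -0.37. *Hnrnph1*, which binds runs of guanine in introns and exons, was lower at all 5 of its probes. The largest fall was at ILMN_1256671, with 9.98, 8.99, 8.23 and 10.65 in null cells, against 12.10, 11.94, 11.16 and 12.15 in wildtype cells (-2.38 ± 0.48, a 5.20-fold fall, adjusted p = 0.00508). Its brightest probe ILMN_1218767 read 11.63, 10.74, 10.11 and 12 in null cells, against 12.94, 12.95, 12.35 and 13.01 in wildtype cells (-1.69 ± 0.38, adjusted p = 0.00784). Under median absolute deviation scaling this call was lost (-0.89, limma, adjusted p = 0.145). ILMN_2688923 read 10.89, 9.68, 8.83 and 11.40 in null cells, against 12.75, 12.57, 11.97 and 12.86 in wildtype cells (-2.34 ± 0.50, adjusted p = 0.00691). At these 3 probes null array 3 was the lowest of all arrays and null array 4 the highest null array.

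The remaining *Hnrnph1* probes behaved differently within the null genotype. ILMN_2684986 read 7.63, 7.38, 7.60 and 7.78 in null cells, against 9.19, 9.15, 8.25 and 9.33 in wildtype cells (-1.38 ± 0.22, adjusted p = 0.002). ILMN_2684987 read 8.34, 8.03, 8.57 and 8.23 in null cells, against 10.09, 9.86, 8.84 and 10.12 in wildtype cells (-1.44 ± 0.27, adjusted p = 0.00397). Their SD within null was 0.17 and 0.23, where that of the other 3 probes was 0.86 to 1.17. The relatives *Hnrnpf* (-1.65, adjusted p = 0.00557), *Hnrnph3* (-1.12, adjusted p = 0.00623) and *Hnrnph2* (-0.57, adjusted p = 0.02) each fell at their 1 kept probe.

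*Hnrnpk*, which binds runs of cytosine, differed strongly at 1 of 3 probes. ILMN_1245987 read 8.58, 7.20, 6.56 and 8.98 in null cells, against 10.48, 10.15, 9.24 and 10.45 in wildtype cells (-2.25 ± 0.52, adjusted p = 0.0095). ILMN_2784821 read 8.43, 7.91, 8.41 and 8.86 in null cells, against 8.71, 8.60, 8.54 and 8.99 in wildtype cells, which overlapped (-0.31 ± 0.19, adjusted p = 0.222). ILMN_1241308, near background, read 5.43, 5.41, 5.19 and 5.43 in null cells, against 5.10, 5.64, 5.64 and 4.86 in wildtype cells (0.06 ± 0.18, adjusted p = 0.819). Null arrays 2 and 3, the lowest at the first probe, lay apart at the second, where null array 3 was level with null array 1.

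*Hnrnpa1*, a repressor of splice sites that is exchanged between nucleus and cytoplasm, was lower at its 3 kept probes. ILMN_3096701 read 9.95, 8.81, 8.61 and 10.54 in null cells, against 11.74, 11.36, 10.60 and 11.74 in wildtype cells (-1.88 ± 0.44, adjusted p = 0.00956). ILMN_3024068 read 7.20, 6.76, 6.49 and 7.53 in null cells, against 8.11, 8.05, 7.74 and 7.97 in wildtype cells (-0.97 ± 0.21, adjusted p = 0.00701). Its call was lost under median absolute deviation scaling (-0.78, limma, adjusted p = 0.0681). The brightest, ILMN_1244536, read 13.37, 13.01, 12.91 and 13.54 in null cells, against 13.72, 13.76, 13.60 and 13.76 in wildtype cells (-0.50 ± 0.14, adjusted p = 0.0218). None of the 3 overlapped, but the last turned to 0.47 under median absolute deviation scaling, and it missed the threshold when null array 2 or wildtype array 1, 2 or 4 was left out (adjusted p from 0.0532 to 0.0597). The same probe missed it in the value table (limma, adjusted p = 0.102) and without null arrays 2 and 3 and wildtype array 3 (0.0691). *Hnrnpa1* is known for processed copies elsewhere in the genome, and binding of their RNA to these probes was not tested.

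*Hnrnpa2b1*, a close relative, gave a similar picture. ILMN_2615855 read 9.11, 8.04, 8.12 and 9.67 in null cells, against 11.21, 10.58, 9.57 and 11.09 in wildtype cells, with null array 4 above wildtype array 3 (-1.88 ± 0.45, adjusted p = 0.0104). ILMN_2508137 read 9.02, 8.04, 8.12 and 9.40 in null cells, against 10.21, 10.04, 9.76 and 10.36 in wildtype cells (-1.45 ± 0.30, adjusted p = 0.00594). Its call was lost under median absolute deviation scaling (-0.95, limma, adjusted p = 0.068). The brightest probe, ILMN_2771074, read 11.37, 10.96, 11.08 and 11.37 in null cells, against 11.53, 11.44, 11.49 and 11.56 in wildtype cells, and just missed the threshold (-0.31 ± 0.11, adjusted p = 0.0516). It passed without null array 1 (-0.37, adjusted p = 0.0453) or null array 4 (-0.37, adjusted p = 0.0261).

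*Hnrnpdl* and *Hnrnpd* encode related proteins that bind AU rich RNA. *Hnrnpdl* read 9.28, 8.26, 7.65 and 9.70 in null cells at ILMN_2501670, against 10.90, 10.72, 10.02 and 10.72 in wildtype cells (-1.87 ± 0.42, adjusted p = 0.00823). At its brightest probe ILMN_2903440 it read 12.45, 12.25, 12.49 and 12.41 in null cells, against 12.62, 12.70, 12.66 and 12.72 in wildtype cells (-0.28 ± 0.09, adjusted p = 0.0301). This smaller fall did not overlap either, but it turned to 0.60 under median absolute deviation scaling and was lost without null array 1 or 2 or wildtype array 1, 2 or 4 (adjusted p from 0.0542 to 0.0818). It was also lost with median centring (limma, adjusted p = 0.0502), with the replicate number as a block (0.0546) and in the value table (0.281). Without null arrays 2 and 3 and wildtype array 3 it was lost too (0.0887). Of its other probes ILMN_2690061 was lower (-0.69, adjusted p = 0.0106) and ILMN_2774965, near background, did not pass (-0.19). *Hnrnpd* read 9.87, 9.73, 9.52 and 10.13 in null cells at ILMN_2498368, against 9.92, 9.94, 10.09 and 10.20 in wildtype cells (-0.23 ± 0.14, adjusted p = 0.212). At ILMN_2771260 it read 5.92, 5.89, 5.66 and 5.91 in null cells, against 5.46, 5.46, 5.84 and 5.37 in wildtype cells (0.31 ± 0.12, adjusted p = 0.0676). The genotypes overlapped at both, through null array 4 at the first and through null array 3 and wildtype array 3 at the second. The second passed without null array 3 (0.38, adjusted p = 0.0496) or wildtype array 3 (0.42, adjusted p = 0.0141), and the first without null array 4 (-0.33, adjusted p = 0.048).

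*Hnrnpa0*, an hnRNP of the same family as *Hnrnpa1*, was the 1 gene called in both directions. ILMN_2645645 read 7.17, 7.26, 7.48 and 7.46 in null cells, against 5.82, 6.05, 6.79 and 6.17 in wildtype cells (1.13 ± 0.19, a 2.19-fold rise, adjusted p = 0.00261). ILMN_1247047 read 11.43, 11.41, 11.36 and 11.54 in null cells, against 11.77, 11.73, 11.80 and 11.79 in wildtype cells (-0.34 ± 0.08, adjusted p = 0.01), and turned to 0.45 under median absolute deviation scaling. This lower call was also lost in the value table (-0.22, adjusted p = 0.15) and without null arrays 2 and 3 and wildtype array 3 (-0.28, adjusted p = 0.0674). Neither probe overlapped between the genotypes, and wildtype array 3 was the highest wildtype array at both.

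Further lower hnRNP probes were those of *Hnrnpr* (-0.96, adjusted p = 0.00545), *Hnrnpll*, which controls splicing of *Ptprc* in lymphocytes (-0.51 and -0.66), *Hnrnpu*, a scaffold of nuclear chromatin (-0.46, adjusted p = 0.0137), *Hnrnpul2* at 1 of 2 probes (-0.40, adjusted p = 0.0181) and *Hnrnpm* at 1 of 3 (-0.33, adjusted p = 0.0335). *Hnrnpc*, a packaging protein that binds runs of uridine, was level at its brightest probe ILMN_1235470, with 14.30, 14.38, 14.32 and 14.34 in null cells, against 14.22, 14.35, 14.30 and 14.24 in wildtype cells (0.06 ± 0.08, adjusted p = 0.589). *Hnrnpab* read 14.52, 14.44, 14.50 and 14.47 in null cells at ILMN_2612423, against 14.27, 14.56, 14.50 and 14.48 in wildtype cells (0.03 ± 0.09, adjusted p = 0.807). Such bright probes may lie near the top of the range of the array, where differences are compressed, and this was not tested. *Hnrnpl*, *Hnrnpa3* and *Hnrnpul1* had no call, and *Hnrnpa3* had the widest spread, with 8.20 and 8.0 on wildtype arrays 1 and 4 and 5.23 and 5.72 on wildtype arrays 2 and 3. ILMN_1231516 of *Hnrnpl* had the largest positive difference of the 102 kept probes (1.17 ± 0.48, adjusted p = 0.0793). It was detected on 3 arrays of each genotype, and the genotypes overlapped.

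Among the other factors, *Ddx5* and *Ddx17*, paralogous DEAD box helicases, held 4 kept probes, 1 of them lower. *Ddx5* read 6.52, 7.11, 6.50 and 6.11 in null cells at ILMN_1215167, against 7.90, 8.04, 7.19 and 8.18 in wildtype cells (-1.27 ± 0.25, adjusted p = 0.00513), and 5.74, 5.30, 5.19 and 4.95 in null cells at ILMN_2747168, against 5.35, 5.05, 5.31 and 5.31 in wildtype cells. At the first probe null array 4 was the lowest array, unlike at *Clk1*, and the second was near background and overlapped (0.04 ± 0.16, adjusted p = 0.868). *Ddx17* was level at its bright probe ILMN_1234672, with 14.27, 14.21, 14.06 and 14.27 in null cells, against 14.18, 14.27, 14.29 and 14.19 in wildtype cells (-0.03 ± 0.09, adjusted p = 0.819). Its dim probe ILMN_2696511 read 5.20, 5.21, 5.03 and 5.42 in null cells, against 4.84, 5.16, 5.07 and 5.17 in wildtype cells (0.16 ± 0.11, adjusted p = 0.297).

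*Ptbp1*, the polypyrimidine tract binding protein, which represses exons in most cells outside the nervous system, was read by 10 kept probes that fell into different patterns. The brightest, ILMN_1224003, read 13.02, 13.08, 13.16 and 12.88 in null cells, against 12.82, 12.75, 12.87 and 12.80 in wildtype cells (0.23 ± 0.09, adjusted p = 0.0679). Null lay above wildtype without overlap there, by a small step that missed the threshold as designed but passed without null array 4 (0.28, adjusted p = 0.0296), with an offset of 50 (0.0424), with a variance trend (0.0198), by the methods' t-test (0.0396) and under median absolute deviation scaling (1.15, adjusted p = 0.0329). At the 3 next brightest probes the differences were 0.18, 0.20 and 0.23, and at the 2 dimmest -0.12 and -0.23, and none of these passed. At 4 dimmer probes null cells were lower. ILMN_1217928 read 8.10, 8.25, 7.64 and 8.15 in null cells, against 8.82, 8.75, 8.60 and 8.77 in wildtype cells (-0.70 ± 0.14, adjusted p = 0.00466). ILMN_1243690 read 8.56, 8.61, 8.35 and 8.52 in null cells, against 9.36, 8.97, 8.91 and 9.20 in wildtype cells (-0.60 ± 0.12, adjusted p = 0.00514). Null array 3 was the lowest array at these, while null array 2 was not low.

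ILMN_2571683 of *Ptbp1* read 8.78, 8.87, 8.37 and 8.92 in null cells, against 9.48, 9.14, 9.15 and 9.59 in wildtype cells (-0.61 ± 0.15, adjusted p = 0.0138). ILMN_2565252 read 7.49, 7.79, 7.12 and 7.63 in null cells, against 8.15, 7.83, 7.93 and 8.15 in wildtype cells (-0.51 ± 0.15, adjusted p = 0.0244), and it missed the threshold without null array 1 or wildtype array 1 or 4 (adjusted p from 0.0543 to 0.0712). It also missed it in the value table (limma, adjusted p = 0.0505) and by the methods' t-test (adjusted p = 0.0549). The genotypes did not overlap at either. All 4 lower *Ptbp1* probes lost their call under median absolute deviation scaling (-0.32 to -0.13). *Ptbp2*, the neural paralog, overlapped at its 1 kept probe (-0.97 ± 0.39, adjusted p = 0.0709).

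None of the 3 factors that read the 3′ end of the intron passed. *U2af2*, which binds the polypyrimidine tract, read 10.22, 10.53, 10.53 and 10.17 in null cells, against 10.10, 10.00, 10.24 and 9.91 in wildtype cells (0.30 ± 0.12, adjusted p = 0.0735). It passed with the replicate number as a block (adjusted p = 0.0497) and without null array 4 (0.37, adjusted p = 0.0344). Its partner *U2af1* read 8.72, 8.70, 8.59 and 8.88 in null cells, against 8.64, 8.41, 8.79 and 8.58 in wildtype cells (0.11 ± 0.11, adjusted p = 0.423). *Sf3b1*, a subunit of the complex that holds the branch point, read 5.26, 5.43, 5.40 and 5.87 in null cells, against 6.16, 5.54, 5.63 and 5.75 in wildtype cells (-0.28 ± 0.17, adjusted p = 0.213). All 3 overlapped between the genotypes.

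Whether probes of 1 gene moved apart was tested on the gap between the brightest probe of a gene, by its mean over the 8 arrays, and each of its other kept probes, in which the scaling of an array largely cancels. Of 54 such pairs in 29 of the genes, 22 in 14 genes changed their gap between the genotypes (40.7%, limma, adjusted over 5897 pairs, of which 29.6% did). The brighter probe fell less or rose more in 15 (27.8%, against 21.2% of all pairs) and fell more in 7 (13%, against 8.38%). At *Srsf6* the gap was 5.46 on average in null and 3.29 in wildtype cells, a change of 2.17 ± 0.47 (adjusted p = 0.015). At *Clk4* it was 4.67 and 2.73 (1.94 ± 0.43, adjusted p = 0.0157), and at *Srsf5* 2.07 and 0.92 (1.15 ± 0.25, adjusted p = 0.0157), in each case null before wildtype. The other pairs in which the brighter probe fell less or rose more belonged to *Hnrnpa1*, *Hnrnpa2b1*, *Hnrnpdl*, *Hnrnph1*, *Ptbp1* and *Srsf10*.

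In the opposite direction the bright probe of *Hnrnpa0* lost against the dim one, with a gap of 4.09 in null and 5.56 in wildtype cells (-1.47 ± 0.19, adjusted p = 0.00442), the smallest adjusted p among these 54 pairs. *Hnrnpk* (-1.94 ± 0.44, adjusted p = 0.0164, against ILMN_2784821), *Ddx5* (-1.31 ± 0.28, adjusted p = 0.015) and *Son* (-1.45 ± 0.33, adjusted p = 0.0167) followed, besides *Hnrnpd* and *Srsf10* (-1.98 against ILMN_1245192, adjusted p = 0.047). This *Srsf10* call was lost without background correction, under median absolute deviation scaling, in the value table and with detection on all arrays (adjusted p from 0.0514 to 0.0683), and without null array 1, 2 or 3 or wildtype array 1, 2 or 4 (0.0643 to 0.12). The dimmer probes of *Hnrnpd*, *Ddx5* and *Son* and 1 of *Hnrnpk* lie near background, where a fall cannot show. The count of 22 pairs was 11 without wildtype array 1, 14 without wildtype array 2 and 8 without wildtype array 4, and it was 0 by limma once *Xist* was a covariate, also at an unadjusted p under 0.05.

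**Figure D3:**
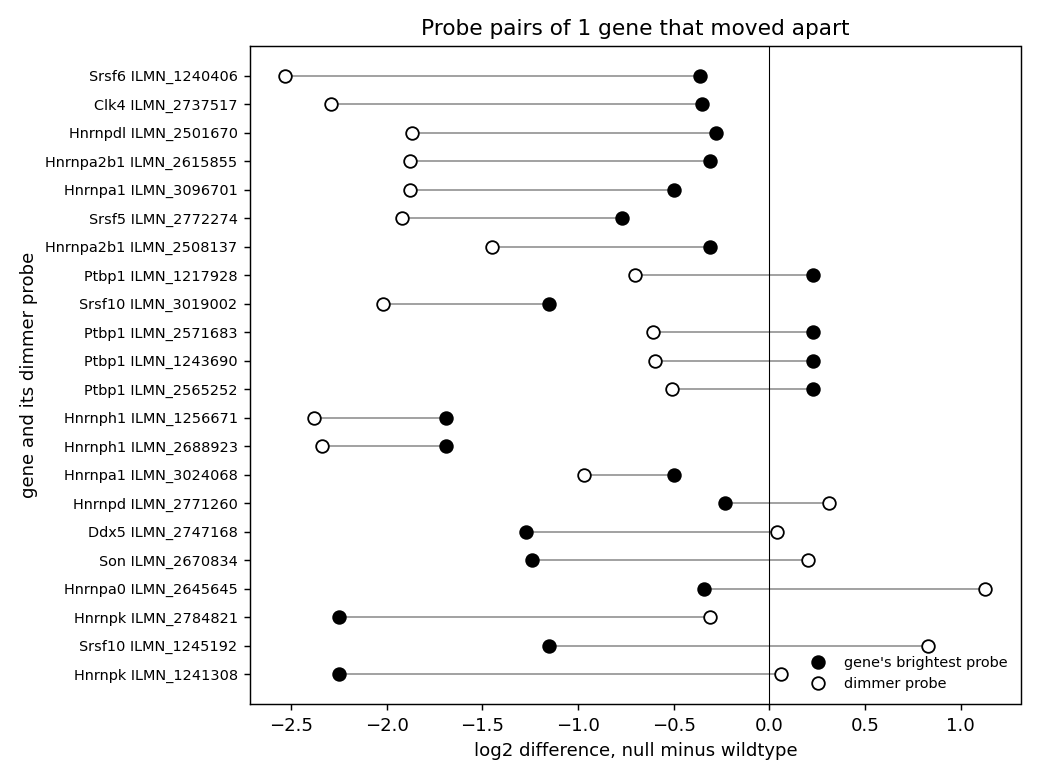
Log2 difference (null minus wildtype) of the brightest probe (filled) and a dimmer probe (open) of 1 gene, for the 22 pairs whose gap changed between the genotypes, ordered by the change. The open points of Srsf6 and Clk4 lie left of the filled ones, at -2.53 and -2.29, and those of Hnrnpk, Hnrnpa0 and Son lie right of them.

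The arrays of 1 genotype differed among themselves at these genes. Relative to the wildtype mean, the mean over the 102 kept probes was -0.43, -0.66, -0.76 and -0.32 on null arrays 1 to 4, against 0.06, -0.02, -0.16 and 0.11 on wildtype arrays 1 to 4. The hnRNPs ranged most widely in null cells, at -0.47, -0.83, -0.90 and -0.30. Null arrays 1 and 4 both lay above null arrays 2 and 3 at 57 of the 102 probes (55.9%, against 30.8% of all kept probes), and wildtype array 3 was the lowest wildtype array at 51 (against 29.1%).

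This order went with the size of the difference. Among the 22 probes that fell more than 2-fold, null arrays 1 and 4 lay above 2 and 3 at 20 and wildtype array 3 was the lowest at all 22, and among the other 80 probes these counts were 37 and 29. The median SD of the 22 probes was 0.79 in null and 0.45 in wildtype cells, and that of the other 80 was 0.17 and 0.14. Over all kept probes it was 0.196 and 0.151. An SD above 0.5 in null was found at 23 of the 102 probes (22.5%, against 8.21% of all kept probes), and in wildtype at 10 (9.8%, against 2.52%).

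**Figure D4:**
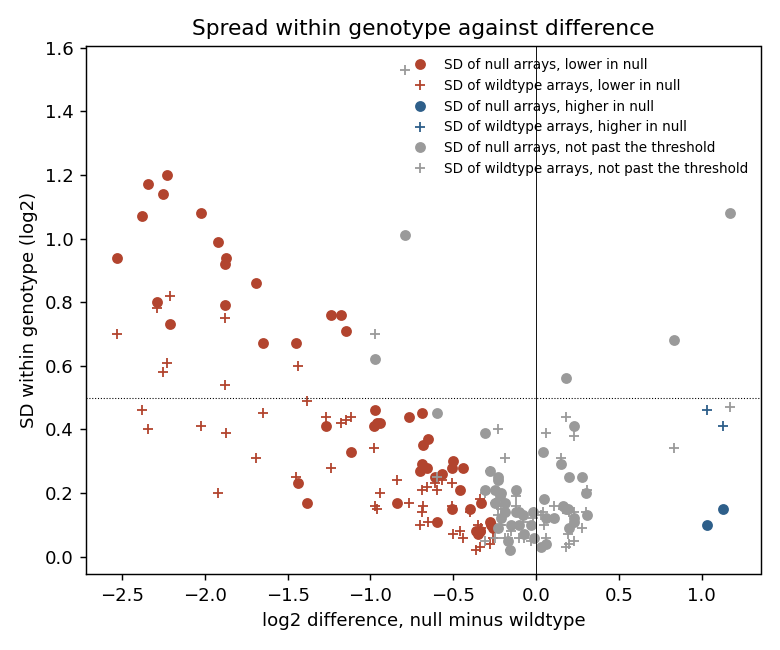
SD of the 4 null arrays (circles) and of the 4 wildtype arrays (crosses) of each kept probe, on the log2 scale, against its log2 difference (null minus wildtype); the dotted line marks an SD of 0.5. Most probes with large falls, at the left, have a wide spread in null cells. Srrm2 and Hnrnpa0, at the right, have a narrow one, while Hnrnpl, furthest right, has a wide one (1.08). Hnrnpa3, at -0.79, is also wide (1.01).

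The same order was present outside these genes. The leading axis of the deviations from the genotype means, taken over kept probes of other genes, held 56.7% of their variance, with scores of 0.185, -0.332, -0.520 and 0.667 on null arrays 1 to 4, against 0.137, -0.024, -0.295 and 0.182 on wildtype arrays 1 to 4. It carried 75.7% of the variance within genotypes of the 102 probes, and 56.9% of that of all kept probes. Across the 102 probes the loading on this axis and the log2 difference correlated at r = -0.85, and across all kept probes at -0.59, over probes that share the same 8 arrays. Without null arrays 2 and 3 and wildtype array 3, the lowest on this axis, 40 of the 102 probes were lower (39.2%, against 16.7% of all kept probes). All 40 of them were among the 51 above, 4 were higher (3.92%, against 16.9%), and the median was -0.25. Without null array 4 alone, 8 were higher (7.84%, against 25.7% of all kept probes).

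Other measures moved with these arrays. The sums below run over all probes of a list that were joined to a signal, also those that were not kept. The summed intensity of erythroid markers (4 of 7 genes kept, with *Gata1* and *Hbb-b1* among those not kept) was 3800, 6420, 9070 and 382 on null arrays 1 to 4, against 1240, 886, 1710 and 397 on wildtype arrays 1 to 4. It was highest on null arrays 2 and 3 and wildtype array 3, where the splicing regulators were lowest. Markers of pancreas and gut epithelium (4 of 7 kept, with *Epcam*, *Pdx1* and *Ptf1a* not kept) summed to 677, 933, 1160 and 477 on null arrays, against 400, 436, 399 and 356 on wildtype arrays, and neural markers (2 of 5 kept, with *Elavl3* and *Tubb3* among those not kept) to 813, 928, 1140 and 658 against 230, 236, 176 and 213. Both were higher on every null array than on any wildtype array. A list of immediate early and heat shock genes (13 of 19 kept), which can respond to tissue dissociation, summed to 10800 to 12000 on null arrays. On wildtype array 3 it summed to 17900, against 8710 to 10500 on the other wildtype arrays. Its heat shock genes were *Dnajb1*, *Hsph1*, *Hspa1a* and *Hspa1b*. Of these *Dnajb1* (11.34 to 11.44) and *Hsph1* (10.80 to 11.81) were bright on every array. Endothelial markers (4 of 5 kept) summed to 494, 702, 845 and 293 on null arrays, against 457, 642, 490 and 437 on wildtype arrays, and macrophage markers (3 of 5 kept) to 388, 454, 609 and 241 against 270, 500, 262 and 361. Both were highest on null arrays 2 and 3 and on wildtype array 2, not on wildtype array 3. The endothelial markers did not share 1 direction. *Tek* was lower in null cells (-1.41, limma, adjusted p = 1.46e-05), while *Cdh5*, *Emcn* and *Pecam1* lay above 0 without passing (0.76 to 1.55). The part of these cells and signals in the falls of the splicing regulators was not tested.

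**Figure D5:**
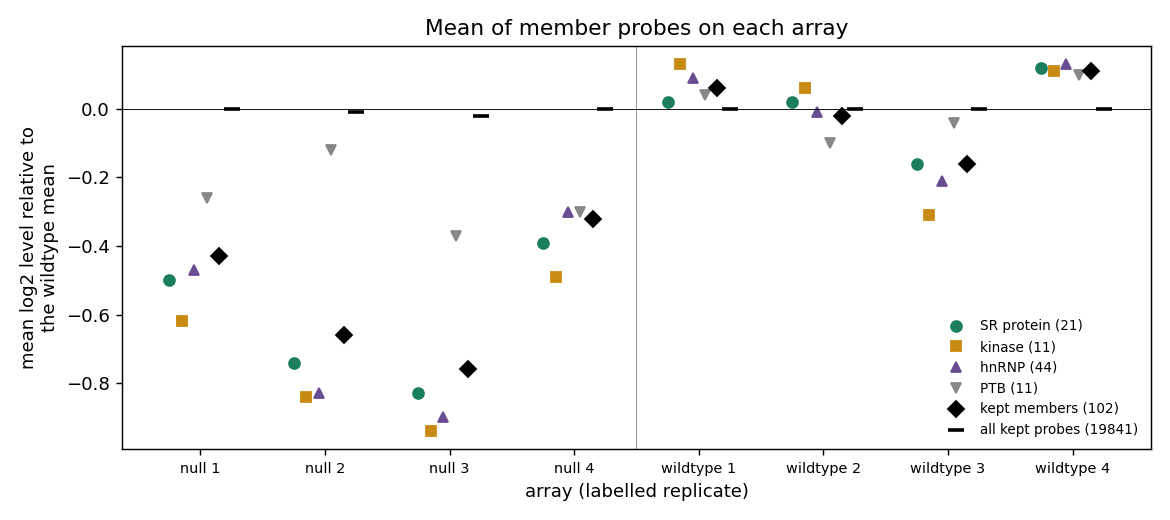
Mean log2 level on each array, relative to the wildtype mean, null arrays left and wildtype arrays right. Drawn are the kept probes of the SR proteins, kinases, hnRNPs and *Ptbp* genes, all kept member probes and all kept probes. The SR-related factors, helicases and 3′ splice site factors are not drawn. The kept member probes (diamonds) run from -0.76 to -0.32 on null arrays and from -0.16 to 0.11 on wildtype arrays, while the mean of all 19841 kept probes stays within 0.02 of 0.

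Other genes of RNA processing were set beside these on the same arrays. Of 76 kept probes of core spliceosome genes 17 were lower and 11 higher (22.4 and 14.5%), with a median of 0.01, close to that of all probes. Members of this list went both ways. *Dhx15*, a helicase of spliceosome release, was lower at 1 of 2 probes (-1.92, the other -0.22), and of the tri-snRNP *Prpf3* was lower at 1 of 4 (-1.54 at a probe detected on 1 null array, the others -0.02 to 0.23) and *Prpf4* at 1 of 2 (-0.92, the other 0.06). *Prpf19*, a ubiquitin ligase of the spliceosome, was higher at 3 probes (0.47 to 0.68). Of 79 probes of other splicing regulators 24 were lower and 8 higher (30.4 and 10.1%), with a median of -0.17.

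Among those other regulators the cold inducible *Rbm3* was lower (-1.57 and -1.05), at probes detected on 2 and on 1 of the null arrays. *Celf1* at 1 of 3 probes (-1.15, the others -0.07 and -0.01) and the KH protein *Khdrbs1* (-1.01 and -0.69) were lower too. *Celf2* (0.80 to 1.90 at 3 probes) and *Rbfox2* (0.44 and 0.93) were higher. *Tia1*, a regulator of stress granules and exons, was called in both directions, at 1.24 and -0.32. Nonsense-mediated decay genes were higher at 7 of 16 probes and lower at 1, with a median of 0.36, among them *Upf1*, its central helicase, at 1 of 3 probes (0.74, the others 0.41 and 0.48), and *Smg6*, its endonuclease (0.31 to 0.73 at 3 probes). Exon junction complex genes were lower at 1 and higher at 2 of 14 probes, with a median of 0.00. Other kinases and phosphatases that act on such proteins were lower at 7 and higher at 1 of 22 probes, with a median of -0.14, and the largest of these falls were at both probes of *Ppp1cb*, a catalytic subunit of protein phosphatase 1 (-3.01 and -3.06, adjusted p = 0.008 and 0.00919).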

How the data were processed

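RNA of 8 sorted samples was amplified with the TargetAmp-Nano kit and hybridized to Illumina MouseWG-6 arrays, with 4 biological replicates per genotype by the study's methods. The deposited intensity values are GenomeStudio signals that the authors summarized per probe and background-subtracted, and arrays were not normalized to each other. The deposited p-value columns hold 1 minus the detection p and were turned. The deposited value table gives log2 values, which are signals set against the median of the array and a probe baseline of unstated origin. Both tables hold 45281 probes, and 34536 signal rows were joined to 1 probe name each by their profile over the arrays. Columns of samples left unused numbered 0.

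Signals were normalized by neqc (offset 16) and compared with limma 3.58.1 (statmod 1.5.0, R 4.3.3), genotype as the only factor, two-sided, with Benjamini-Hochberg adjustment. Probes detected at p under 0.05 on at least 4 arrays were kept and treated apart, since probes of 1 gene can read different transcripts. Where no array of a genotype was above background, its values were raised to the lowest detected value of the array and the fold given as "at least". The fits were tested on simulated data. The number of arrays limits the precision.

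Values per array are given for up to 4 probes per role with the largest moderated t, for 3 bright probes with the smallest difference, and for both probes of each pair that changed, and 8 other genes are named for their likeness to *Clk1*. Other members appear by their differences, and the related genes named were chosen after their values were seen. The members, lists and tests were chosen with earlier results of these data known. Alternatives were the value table, other filters, no background correction, an offset of 50, centring on the median, scaling by the median absolute deviation, the replicate number as a block, *Xist* as a covariate, a variance trend, the methods' t-test, each array left out, and 3 arrays left out. Of these, scaling by the median absolute deviation takes the measure of spread that the study's methods name for normalization. Some genes of the marker lists are not reported here.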

Additional observations from a re-analysis of the deposited data

Results flagged for a closer look

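In 8 of the 102 groups of 4 arrays examined for the 51 probes given by array, 1 array stood apart from the other 3 by more of the range of the group than Dixon's test allows (95% level, which chance passes in about 1 of 20 groups). In 5 of the 8 it was wildtype replicate 3 at a probe lower in null cells. It read 8.83 at *Clk1*, against 10.37 to 10.56 on the other wildtype arrays, 8.30 at *Clk4* ILMN_2737517, against 9.83 to 9.90, and 8.01 at *Srsf6* ILMN_1240406, against 9.31 to 9.48. At *Hnrnph1* it read 12.35 at ILMN_1218767, against 12.94 to 13.01, and 8.25 at ILMN_2684986, against 9.15 to 9.33. The other 3 were near background. Null replicate 3 read 5.66 at *Hnrnpd* ILMN_2771260, against 5.89 to 5.92 on the other null arrays, and 5.19 at *Hnrnpk* ILMN_1241308, against 5.41 to 5.43, and wildtype replicate 2 read 5.05 at *Ddx5* ILMN_2747168, against 5.31 to 5.35.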

How the results depend on the processing

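Under 9 settings, namely an offset of 50, no background correction, median centring, the value table, no filter, the 20th percentile filter, detection on all arrays, a variance trend and the methods' t-test, the lower member probes numbered 41 to 55 (51 as designed). The higher ones, 2 as designed, were 4 with the offset of 50, 5 with the trend and 4 with the methods' t-test. Over all probes tested, 12.3 to 23.5% were lower and 10.3 to 24.9% higher under these settings. With no filter the median of the members lay -0.25 from that of all probes, and with the 20th percentile filter -0.26 (-0.36 as designed). Median absolute deviation scaling gave 19 lower and 8 higher (18.6 and 7.84%, against 7.14 and 23.0% of all kept probes) with a median of 0.10. It turned 5 named probes, *Srsf6* ILMN_2611728 to 0.50, *Hnrnpa0* ILMN_1247047 to 0.45, *Hnrnpa1* ILMN_1244536 to 0.47, *Hnrnpdl* ILMN_2903440 to 0.60 and *Clk4* ILMN_2851710 to 0.49. The same 5 probes missed the threshold in the value table (limma, adjusted p from 0.0999 to 0.281). With *Xist* as a covariate 0 were lower and 0 higher, against 0.529% and 1.0% of all kept probes. The median was -0.18 and lay -0.16 from that of all probes. The gap changed at 0 pairs, with those of *Hnrnpd* at 0.03 and of *Srsf10* against ILMN_1245192 at 0.18. This *Xist* probe (ILMN_2475156) does not overlap between the genotypes, so the covariate also takes up effects of genotype. With the replicate number as a block 53 were lower (52.0%, against 21.7% of all kept probes), 5 higher (4.9%, against 22.9%) and 26 pairs changed. Same-numbered deviations correlated at 0.17, 0.07, 0.38 and 0.41, so the numbers were not read as pairs. Leaving out 1 array gave 37 to 56 lower and 2 to 8 higher probes, medians of -0.37 to -0.29, distances of -0.42 to -0.33 from all probes and 8 to 28 pairs. Over all kept probes 14.2 to 24.1% were then lower and 14.7 to 25.7% higher. Without null replicates 2 and 3 and wildtype replicate 3, a choice made after seeing the data, 40 were lower and 4 higher. Of all kept probes 16.7% were then lower and 16.9% higher. The causes of these changes were not tested. Signals near background limit 11 of the 102 probes, which were not detected on all 8 arrays.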

Other observations

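The genes whose levels varied within genotypes most like those of *Clk1*, over the 8 arrays and among 13771 probes detected on all of them, were *Zfp987* (Pearson r = 0.9925 of the deviations from the genotype means), *Rbbp9*, *Appl1*, *Zmpste24*, *Ugcg*, *Hpcal4*, *Cntnap4* and *Gabpb1* (0.9919 to 0.9832). They did not share 1 direction between the genotypes, with 5 lower, 2 higher and *Zmpste24* without a call. *Zfp987* read 5.74, 5.28, 5.19 and 6.05 in null cells, against 7.18, 7.21, 6.33 and 7.20 in wildtype cells (-1.42, adjusted p = 0.003 by limma). *Cntnap4*, a neurexin family adhesion protein, was higher in null cells, with 9.34, 8.99, 8.97 and 9.57, against 7.20, 7.19, 6.70 and 7.26 in wildtype cells (2.13, adjusted p = 6.1e-05), and *Hpcal4* was too (0.88, adjusted p = 0.000518). Their order of arrays within a genotype follows from how they were chosen.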
